A study of Mus musculus with 8 samples.

Results

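The metallothionein genes Mt1, Mt2 and Mt3, the metal-responsive transcription factor gene Mtf1 and the zinc exporter gene Slc30a1 were followed in RNA-seq counts from mouse peripheral retina. These 5 genes were taken by symbol from 23284 genes in the files, and all 5 passed the filter on low counts. Mt1 and Mt2 were chosen because their values in these same 8 libraries were higher with MYCN, so their values are given as a description without a test. Mt3, Mtf1 and Slc30a1 were added for what they do, to ask whether the higher Mt1 and Mt2 values extended to other genes that respond to zinc.

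The 4 RbnullTET-MYCN libraries came from retinas labelled Rb null that carry, per the series text, Cre recombinase under the Pax6 alpha enhancer, a Rosa26 lox-stop-lox RTTA allele (a tetracycline-controlled activator switched on by Cre) and a TRE-MYCN transgene (MYCN under a tetracycline response element). The series title names floxed Rb for this group as well. The 4 Rbnull libraries came from retinas with the same Cre and floxed Rb1, the retinoblastoma tumour suppressor gene. Both groups are labelled Rb null and come from postnatal day 12. The alpha enhancer is known to act in part of the peripheral retina, so the tissue may hold cells without Cre, and the labels used here state neither doxycycline treatment nor whether each library is a separate animal. Each p-value is therefore set against library-to-library spread, part of which may be technical.

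Gene counts came to 16166000 to 22873979 reads per RbnullTET-MYCN library and 14872131 to 20007977 per Rbnull library. Mycn was at 201 to 276 CPM (read counts scaled to library size) in the RbnullTET-MYCN libraries and 108 to 339 CPM in the Rbnull libraries. Rb1 was at 123 to 179 CPM in the RbnullTET-MYCN libraries and 138 to 184 CPM in the Rbnull libraries, so neither gene separated the groups. The labels do not say whether reads of the transgene would be counted at Mycn, and the direction of each comparison rests on the labels. Rod and Müller glia markers were present in all 8 libraries, as retina should have them. Blood markers were nearly absent, with 3 of 5 at 0 in all libraries. Lens crystallin and lens fibre markers summed to 13.3 to 57.5 CPM in the RbnullTET-MYCN libraries and 25.4 to 581 CPM in the Rbnull libraries, where Rbnull 2 and 3 stood highest. Rbnull 4, at 103 CPM, also lay above every RbnullTET-MYCN library.

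Metallothioneins are small cysteine-rich proteins that hold zinc and copper through the sulphur of their cysteines. When free zinc rises, the zinc-finger factor MTF1 binds short metal response elements and switches on Mt1, Mt2 and Slc30a1, whose product moves zinc out through the plasma membrane. Glucocorticoids, inflammatory signals through STAT3 and oxidative stress are also known to induce Mt1 and Mt2, while Mt3 is found mainly in the nervous system and responds poorly to metals. In neural tissue Mt1 and Mt2 are known chiefly from glia.

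The coding sequences show what the 3 expressed metallothioneins share and where Mt3 differs. They are given from the GENCODE M21 reference transcripts (build GRCm38, chromosome 8), 5′ to 3′, with the cysteine codons tgc and tgt in capitals.
Mt1: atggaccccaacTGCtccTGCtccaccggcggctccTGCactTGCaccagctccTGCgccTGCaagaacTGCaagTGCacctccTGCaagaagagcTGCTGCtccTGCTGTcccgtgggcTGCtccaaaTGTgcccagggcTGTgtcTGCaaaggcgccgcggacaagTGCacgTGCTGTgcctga
Mt2: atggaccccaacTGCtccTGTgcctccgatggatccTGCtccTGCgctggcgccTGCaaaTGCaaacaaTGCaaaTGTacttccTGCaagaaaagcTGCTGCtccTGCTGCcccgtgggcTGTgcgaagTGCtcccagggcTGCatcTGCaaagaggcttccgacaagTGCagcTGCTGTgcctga
Mt3: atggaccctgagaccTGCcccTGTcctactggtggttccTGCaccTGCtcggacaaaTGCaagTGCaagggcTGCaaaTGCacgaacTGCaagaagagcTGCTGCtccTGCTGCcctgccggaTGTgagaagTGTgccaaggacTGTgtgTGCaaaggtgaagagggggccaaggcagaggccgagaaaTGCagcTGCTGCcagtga
Each holds 20 cysteine codons, among 61 codons in Mt1 and in Mt2 and 68 in Mt3. In a global alignment the coding sequence of Mt2 was identical to that of Mt1 at 79.6% of aligned bases, and that of Mt3 at 66.2% to Mt1 and 67.6% to Mt2. None of the 50-base stretches of the Mt1 or Mt3 reference transcript occurred in a transcript of another gene in that annotation. For Mt2, 45.5% of them did, all through Gm45774, an antisense gene over the same locus. Whether strand was used in counting is not stated in these sources, and within this shared stretch reads of Mt2 cannot be told apart from those of its partner.

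The bases before the annotated start of Mt1, Mt2, Mt3 and Slc30a1 are shown because MTF1 acts through metal response elements, so that the genes it is known to switch on can be set beside Mt3. They come from RefSeq (build GRCm38.p6, plus strand), 250 bases each, at chr8:94178839-94179088 for Mt1, chr8:94172368-94172617 for Mt2, chr8:94152357-94152606 for Mt3 and chr1:191906531-191906780 for Slc30a1. Capitals mark matches, on either strand, to the metal response element core searched as TGCACNC or TGCGCNC.
Mt1: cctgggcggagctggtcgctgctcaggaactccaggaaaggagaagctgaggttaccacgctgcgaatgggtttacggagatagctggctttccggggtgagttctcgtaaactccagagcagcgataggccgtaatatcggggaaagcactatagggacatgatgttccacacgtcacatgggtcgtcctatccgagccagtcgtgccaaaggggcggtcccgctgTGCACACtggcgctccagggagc
Mt2: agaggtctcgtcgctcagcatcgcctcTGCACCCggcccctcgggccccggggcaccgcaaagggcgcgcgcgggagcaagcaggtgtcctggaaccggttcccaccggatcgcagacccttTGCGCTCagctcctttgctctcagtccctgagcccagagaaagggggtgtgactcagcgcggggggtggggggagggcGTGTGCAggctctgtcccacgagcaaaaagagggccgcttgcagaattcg
Mt3: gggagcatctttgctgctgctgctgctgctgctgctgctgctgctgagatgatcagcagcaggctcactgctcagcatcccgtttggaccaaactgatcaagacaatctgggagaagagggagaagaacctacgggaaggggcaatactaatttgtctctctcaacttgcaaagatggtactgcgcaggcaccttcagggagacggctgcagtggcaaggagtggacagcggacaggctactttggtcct
Slc30a1: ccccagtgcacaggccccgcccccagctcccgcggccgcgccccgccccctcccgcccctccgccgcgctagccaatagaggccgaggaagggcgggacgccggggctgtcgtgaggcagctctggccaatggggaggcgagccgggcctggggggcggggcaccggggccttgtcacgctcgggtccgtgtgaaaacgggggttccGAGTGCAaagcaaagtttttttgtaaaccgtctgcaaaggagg
These stretches hold 1 match in Mt1, 3 in Mt2, 0 in Mt3 and 1 in Slc30a1. In the full table windows of 300 bases, which run 50 bases past the start, Mt2 held 4 matches, Mt1 held 3, Slc30a1 held 2, Mt3 held 1 and Mtf1 held 0. Of 32851 such windows of all genes, 25.7% held at least 1 match, 7.11% at least 2 and 1.97% at least 3, and a match is only a match of letters. For Mt1 and Mt2 the windows end before part of the proximal promoter, since the letters TATAAA first appear 128 bases into the Mt1 reference transcript and 89 bases into that of Mt2. The transcript stretch before those letters held 4 matches in Mt1 and 3 in Mt2, some of them also inside the windows. The E-box CACGTG, the site letters best known for MYC proteins, was found in 0 of the 5 windows, against 7.15% of all windows. The antioxidant response element core TGACNNNGC was found once each in the Mt2 and Slc30a1 windows, against 12.4% of all windows.

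Mt1 and Mt2 were higher in every RbnullTET-MYCN library than in any Rbnull library. Mt1 had 56.5, 40.3, 62.2 and 65.8 CPM in RbnullTET-MYCN libraries 1 to 4, against 27.0, 27.6, 32.8 and 32.1 CPM in Rbnull libraries 1 to 4. The lowest RbnullTET-MYCN value, in library 2, still lay above the highest Rbnull value. Mt1 averaged 56.2 ± 11.3 CPM in the RbnullTET-MYCN libraries and 29.9 ± 2.995 CPM in the Rbnull libraries (SD, n = 4 each), a ratio of means of 1.88 and a log2 fold change of 0.91 ± 0.16 (SE).

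Mt2 had 31.4, 20.3, 34.7 and 28.9 CPM in RbnullTET-MYCN libraries 1 to 4, against 10.9, 11.5, 11.7 and 14.5 CPM in the Rbnull libraries. RbnullTET-MYCN 2 was again the lowest of its group, and the groups did not overlap. Mt2 averaged 28.8 ± 6.18 CPM in the RbnullTET-MYCN libraries and 12.2 ± 1.57 CPM in the Rbnull libraries (SD, n = 4 each), a ratio of means of 2.37 and a log2 fold change of 1.25 ± 0.18 (SE).

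Of the 5 genes, 0 were among the 9 of 15106 genes tested (0.0596%) that edgeR's quasi-likelihood test called at an adjusted p under 0.05, of which 8 were higher (0.0530%) and 1 lower (0.00662%) in the RbnullTET-MYCN libraries. An unadjusted edgeR p under 0.05 was reached by 3 of the 5 genes, and by 2384 of the 15106 genes tested, a share against which the counts for each list of genes are to be read. DESeq2, which called 3.57% of all genes tested, called Mt1 and Mt2, limma-voom called 0 of the 5, and edgeR called Mt1 and Mt2 without RbnullTET-MYCN 2 or without RbnullTET-MYCN 3. With total counts as the only scaling, or without a filter on low counts, edgeR called Mt2 but not Mt1. Over all genes edgeR also called more than 9 without RbnullTET-MYCN 2 or without RbnullTET-MYCN 3, at 230 in the latter fit. The groups did not overlap for 3 of the 5 genes, Mt1, Mt2 and Mtf1, against 7.65% of all genes tested (4.36% with the RbnullTET-MYCN group higher). Nothing is read from these calls, p-values or lack of overlap for Mt1 and Mt2, which were chosen on the same values.

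**Figure D1:**
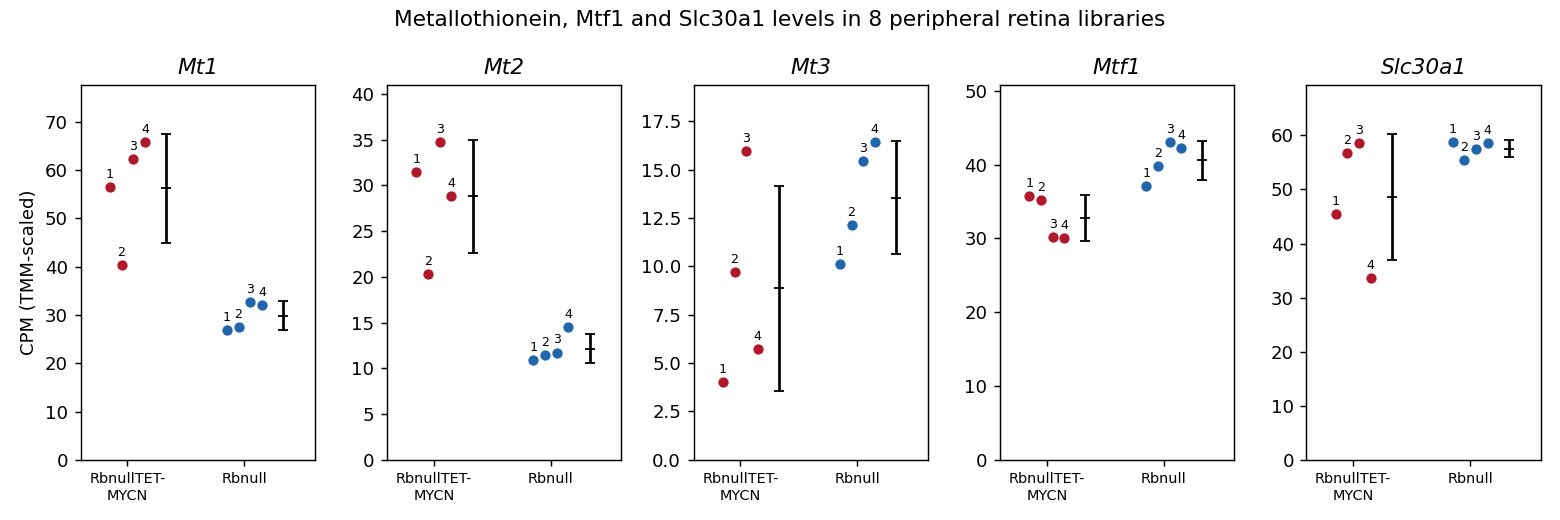
CPM (y axis, from 0) of Mt1, Mt2, Mt3, Mtf1 and Slc30a1 in the 4 RbnullTET-MYCN libraries (red) and the 4 Rbnull libraries (blue), each point a library with its number, and black bars the mean ± SD. Mt1 and Mt2 stood higher in all 4 RbnullTET-MYCN libraries, Mtf1 stood lower, and for Mt3 and Slc30a1 the groups overlapped.

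Mt3, the brain metallothionein first described as a growth inhibitory factor of neurons, did not share the higher values of Mt1 and Mt2. It had 4.02, 9.69, 16.0 and 5.74 CPM in RbnullTET-MYCN libraries 1 to 4, against 10.1, 12.2, 15.5 and 16.4 CPM in the Rbnull libraries. RbnullTET-MYCN 1, 2 and 4 lay below all Rbnull libraries, library 2 only just, and RbnullTET-MYCN 3 lay within their range. Mt3 averaged 8.85 ± 5.30 CPM in the RbnullTET-MYCN libraries and 13.5 ± 2.92 CPM in the Rbnull libraries (SD, n = 4 each), a log2 fold change of -0.61 ± 0.37 (SE; adjusted p = 0.455, edgeR's quasi-likelihood test). Without RbnullTET-MYCN 3 the log2 fold change was -1.05 (adjusted p = 0.0988), and without RbnullTET-MYCN 1 it was -0.38 (adjusted p = 0.671).

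Mtf1, the regulator, was slightly lower in all 4 RbnullTET-MYCN libraries but did not pass the test. It had 35.8, 35.3, 30.2 and 30.1 CPM in RbnullTET-MYCN libraries 1 to 4, against 37.2, 39.9, 43.1 and 42.3 CPM in the Rbnull libraries. The gap between the nearest libraries of the groups was small, and groups that did not overlap with the RbnullTET-MYCN group lower were seen for 3.29% of all genes tested. Mtf1 averaged 32.8 ± 3.12 CPM in the RbnullTET-MYCN libraries and 40.6 ± 2.65 CPM in the Rbnull libraries (SD, n = 4 each), a log2 fold change of -0.31 ± 0.10 (SE; adjusted p = 0.225, edgeR's quasi-likelihood test).

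Slc30a1, the exporter, was as high in RbnullTET-MYCN 2 and 3 as in the Rbnull libraries and lower in the other two. It had 45.5, 56.8, 58.6 and 33.5 CPM in RbnullTET-MYCN libraries 1 to 4, against 58.8, 55.4, 57.5 and 58.7 CPM in the Rbnull libraries. The Rbnull libraries lay close together, and the spread was in the RbnullTET-MYCN group. Slc30a1 averaged 48.6 ± 11.6 CPM in the RbnullTET-MYCN libraries and 57.6 ± 1.57 CPM in the Rbnull libraries (SD, n = 4 each), a log2 fold change of -0.24 ± 0.16 (SE; adjusted p = 0.489, edgeR's quasi-likelihood test). Without RbnullTET-MYCN 4 the log2 fold change was -0.10 (adjusted p = 0.773). The libraries with the lowest Mt3, RbnullTET-MYCN 1 and 4, were also those with the lowest Slc30a1. They had the highest sums of 12 ciliary and pigment epithelium markers too, at 100.02 and 159.8 CPM, against 29.0 to 71.5 CPM in the other 6 libraries, and their part in the result was not tested.

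**Figure D2:**
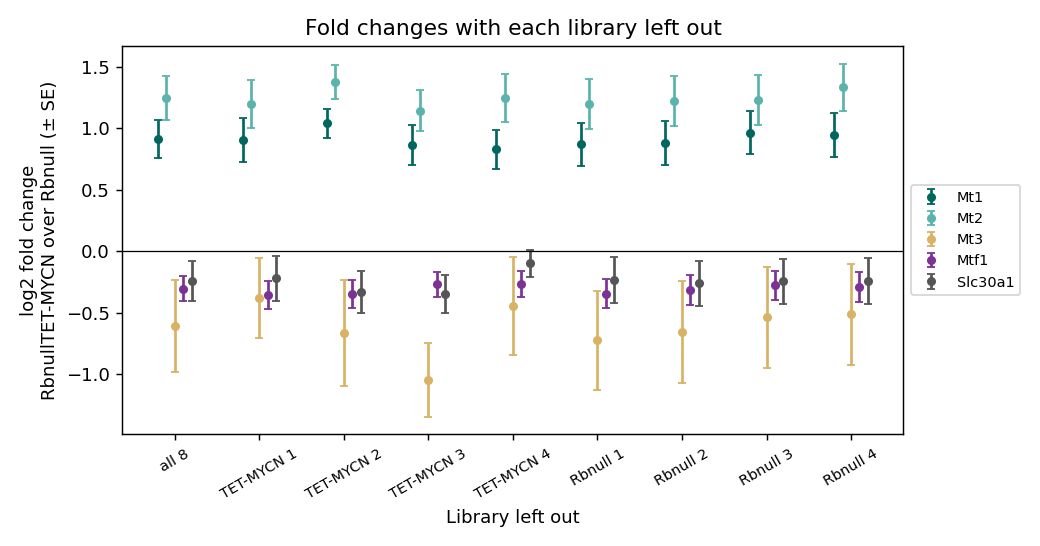
Log2 fold change ± SE, RbnullTET-MYCN over Rbnull, of the 5 genes (y axis) with all 8 libraries and with each library left out in turn (x axis). Mt1 and Mt2 stayed above 0 and Mt3, Mtf1 and Slc30a1 below 0 in each of these 9 fits, with Mt3 between -1.05 and -0.38 when a library was left out.

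Levels were compared between genes as CPM per kilobase of reference transcript. In the RbnullTET-MYCN libraries these levels were 102 ± 20.5 for Mt1, 56.4 ± 12.1 for Mt2, 16.5 ± 9.89 for Mt3, 9.27 ± 2.21 for Slc30a1 and 4.30 ± 0.409 for Mtf1 (SD, n = 4). In the Rbnull libraries they were 54.4 ± 5.46 for Mt1, 23.8 ± 3.08 for Mt2, 25.3 ± 5.44 for Mt3, 10.98 ± 0.299 for Slc30a1 and 5.32 ± 0.348 for Mtf1 (SD, n = 4). Mt1 was thus the most abundant of the 5 in both groups. Mt2 and Mt3 differed by less than their spread in the Rbnull libraries, whereas Mt2 lay above Mt3 in each RbnullTET-MYCN library. Mt3 and Slc30a1 overlapped in the RbnullTET-MYCN libraries, where library 1 had 7.49 for Mt3 and 8.67 for Slc30a1. The transcript lengths used were 549 bases for Mt1, 511 for Mt2, 536 for Mt3, 7631 for Mtf1 and 5244 for Slc30a1, from 1 reference transcript a gene.

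The share of Mt3 in metallothionein reads rests in part on the Mt1 and Mt2 values by which those genes were chosen, and is given with no test. Mt3 made up 4.37% (95% exact binomial interval 3.38% to 5.53%), 13.8% (12.1% to 15.6%), 14.1% (12.6% to 15.7%) and 5.72% (4.74% to 6.83%) of the Mt1, Mt2 and Mt3 reads in RbnullTET-MYCN libraries 1 to 4. In Rbnull libraries 1 to 4 it made up 21.1% (18.5% to 23.8%), 23.7% (20.9% to 26.7%), 25.8% (23.0% to 28.8%) and 26.1% (23.3% to 29.0%). The Mt3 share was lower in each RbnullTET-MYCN library than in any Rbnull library, and the intervals cover counting error only. Mt2 made up 35.7%, 33.5%, 35.8% and 30.5% of the Mt1 and Mt2 reads in RbnullTET-MYCN libraries 1 to 4 and 28.9%, 29.4%, 26.4% and 31.1% in the Rbnull libraries. These Mt2 shares overlapped between the groups, through RbnullTET-MYCN 4 and Rbnull 4.

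**Figure D3:**
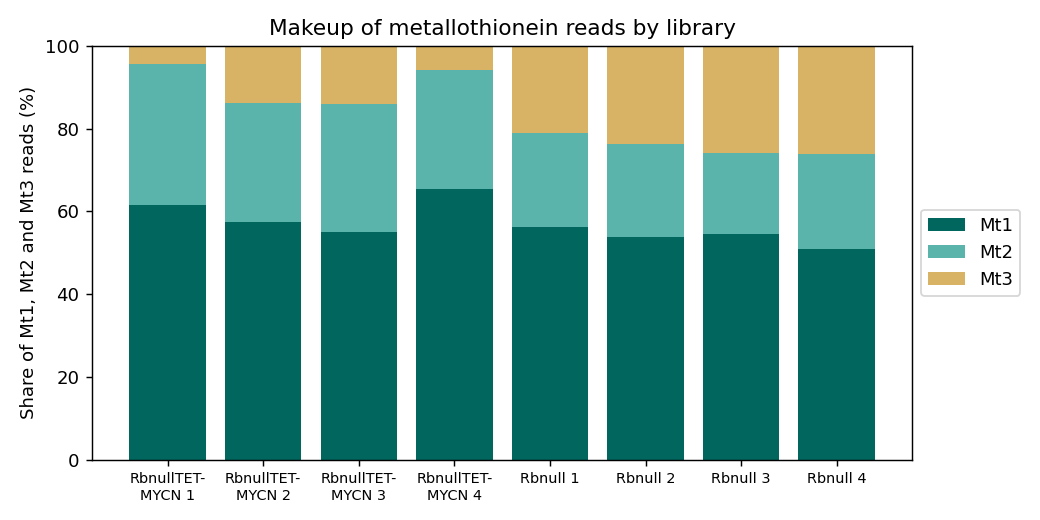
Share of Mt1, Mt2 and Mt3 in their summed reads (y axis, percent) in each of the 4 RbnullTET-MYCN and 4 Rbnull libraries (x axis). Mt3 filled 4.37% to 14.1% of the bar in RbnullTET-MYCN libraries and 21.1% to 26.1% in Rbnull libraries.

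Mt4, the metallothionein of stratified squamous epithelia, had 0 reads in each RbnullTET-MYCN library and 1 read in all Rbnull libraries together, and was not tested. Mt4, Mt3, Mt2 and Mt1 lie side by side in this order in the RefSeq gene order, between Bbs2 and Nup93. These neighbours were named for their position after the values were seen. Bbs2, a gene of cilia, had a log2 fold change of -0.36 ± 0.15 (SE; adjusted p = 0.279, edgeR) and averaged 47.8 ± 6.92 CPM in the RbnullTET-MYCN libraries and 61.5 ± 9.90 CPM in the Rbnull libraries (SD, n = 4 each). Nup93, a nuclear pore gene, had a log2 fold change of 0.20 ± 0.10 (SE; adjusted p = 0.356, edgeR) and averaged 71.8 ± 3.73 CPM in the RbnullTET-MYCN libraries and 62.5 ± 6.43 CPM in the Rbnull libraries (SD, n = 4 each). The groups overlapped for Bbs2, while every RbnullTET-MYCN library lay above every Rbnull library for Nup93, the nearest of them almost level.

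Other zinc transporters and reported targets of MTF1 were then read from the same fit. Of 10 zinc exporter genes of the SLC30 family, Slc30a1 among them, 9 were tested and edgeR called 0, with 1 at an unadjusted p under 0.05. DESeq2 called 1 of them, Slc30a10, as higher, and limma-voom called 0. Their median log2 fold change was -0.0038, against 0.012 over all genes tested, with 4 positive and 5 negative. Slc30a10, known above all as a manganese exporter, had 123, 113, 78.3 and 151 CPM in RbnullTET-MYCN libraries 1 to 4, against 70.1, 71.7, 34.7 and 43.9 CPM in the Rbnull libraries. All RbnullTET-MYCN libraries lay above all Rbnull libraries, at a log2 fold change of 1.08 ± 0.26 (SE; adjusted p = 0.158, edgeR). Slc30a2, a vesicular exporter, was at 0.453 to 5.28 CPM in the RbnullTET-MYCN libraries and 1.17 to 7.96 CPM in the Rbnull libraries, with a log2 fold change of -0.90 ± 0.78 (SE; adjusted p = 0.615, edgeR). The Slc30a2 value rested on single libraries, at -2.04 (adjusted p = 0.150, edgeR) without RbnullTET-MYCN 3 and -0.19 (adjusted p = 0.929, edgeR) without Rbnull 2. Slc30a7, an exporter of the secretory pathway, had a log2 fold change of 0.11 ± 0.12 (SE; adjusted p = 0.716, edgeR). Slc30a8, the exporter of pancreatic beta cells, was at most 0.302 CPM and was not tested.

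Zinc importers of the SLC39 family had mostly small positive values that did not pass the test. Of 14 genes 13 were tested, edgeR, DESeq2 and limma-voom each called 0, and 2 had an unadjusted p under 0.05 in edgeR. The median log2 fold change was 0.12, with 10 positive and 3 negative. Slc39a11 was at 12.6 to 17.2 CPM in the RbnullTET-MYCN libraries and 9.70 to 12.3 CPM in the Rbnull libraries, without overlap, at a log2 fold change of 0.39 ± 0.15 (SE; adjusted p = 0.266, edgeR). Slc39a10, a plasma membrane importer that MTF1 is reported to repress, was at 70.4 to 97.8 CPM in the RbnullTET-MYCN libraries and 57.1 to 75.8 CPM in the Rbnull libraries, at 0.35 ± 0.14 (SE; adjusted p = 0.267, edgeR). Slc39a6 was at 91.5 to 96.2 CPM in the RbnullTET-MYCN libraries and 80.1 to 87.9 CPM in the Rbnull libraries, again without overlap, at 0.15 ± 0.08 (SE; adjusted p = 0.379, edgeR). Slc39a3 went the other way, at -0.18 ± 0.10 (SE; adjusted p = 0.402, edgeR). Slc39a5 was at most 0.371 CPM and was not tested.

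Genes reported as MTF1 targets in mouse, other than metallothioneins and Slc30a1, went both ways. All 9 were tested, edgeR, DESeq2 and limma-voom each called 0, and 4 had an unadjusted p under 0.05 in edgeR. The median log2 fold change was 0.11, with 5 positive and 4 negative, and it was -0.0020 without RbnullTET-MYCN 3 and -0.078 without both RbnullTET-MYCN 3 and Rbnull 1. The selenoprotein gene 2700094K13Rik (now Selenoh) was at 65.5 to 111 CPM in the RbnullTET-MYCN libraries and 40.2 to 65.4 CPM in the Rbnull libraries, a log2 fold change of 0.64 ± 0.20 (SE; adjusted p = 0.202, edgeR). Its nearest libraries, RbnullTET-MYCN 2 and Rbnull 4, were almost level. Csrp1, which codes for a LIM-domain protein, was at 58.6 to 77.5 CPM in the RbnullTET-MYCN libraries and 52.2 to 56.3 CPM in the Rbnull libraries, at 0.30 ± 0.11 (SE; adjusted p = 0.239, edgeR). Ndrg1 had a negative value, at 527 to 714 CPM in the RbnullTET-MYCN libraries and 706 to 953 CPM in the Rbnull libraries (-0.35 ± 0.14 SE; adjusted p = 0.276, edgeR). Slc39a10, given above as a gene that MTF1 is reported to repress, is also in this list and among the 5 positive values. The sign count and median thus pool targets with different known directions. They cannot by themselves show whether a response to zinc extended to these genes.

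**Figure D4:**
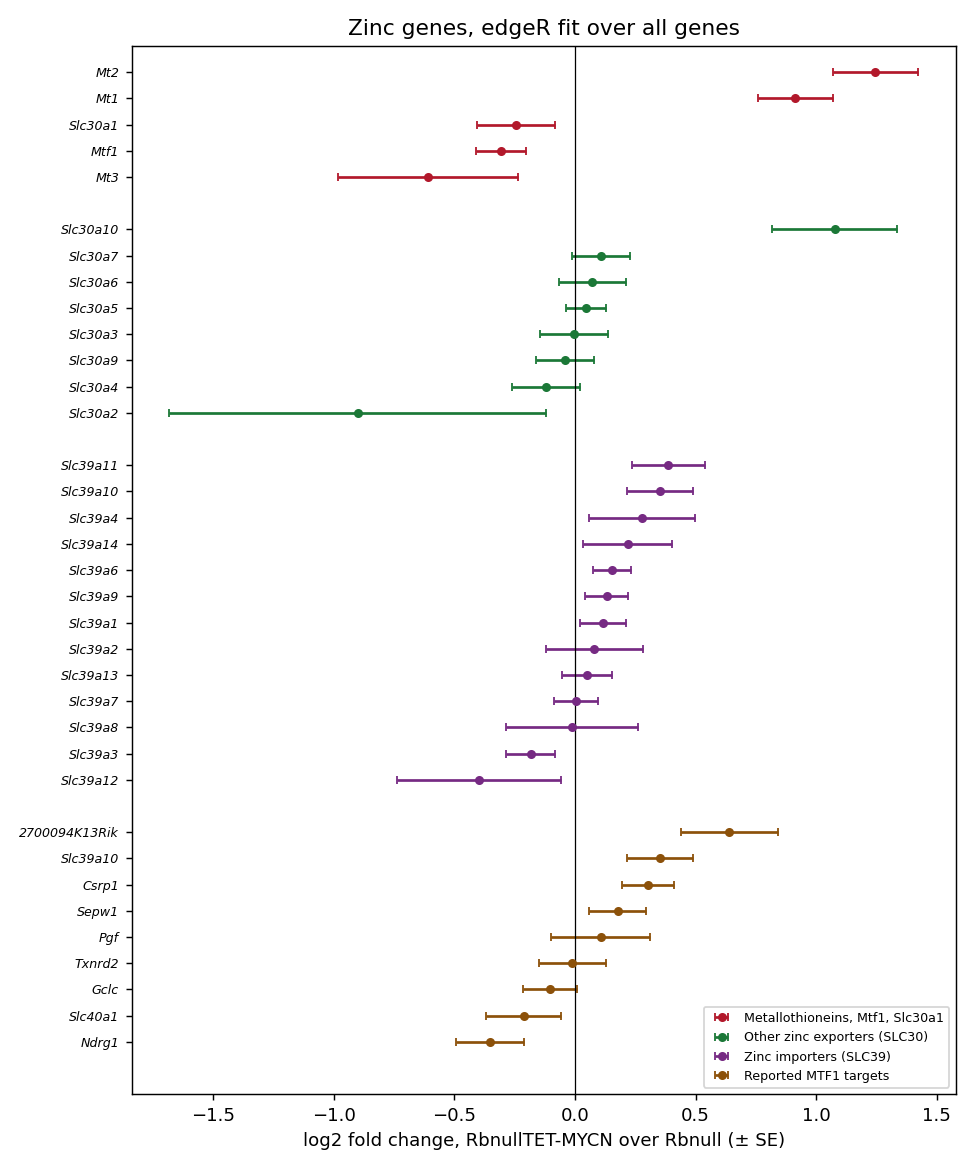
Log2 fold change ± SE (x axis, edgeR fit over all genes) of the 5 genes, the other zinc exporters, the zinc importers and the reported MTF1 targets, 1 gene a line, with Slc39a10 shown in both lists it belongs to. Mt1, Mt2 and Slc30a10 stand near 1, whereas most zinc transporters lie within 0.4 of 0.

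Copper and iron handling genes showed 0 calls by edgeR, DESeq2 or limma-voom, and 0 of them had an unadjusted p under 0.05 in edgeR. The median log2 fold change was 0.012 over 10 copper genes tested and 0.046 over 10 iron genes. Log2 fold changes were 0.24 ± 0.14 (SE; adjusted p = 0.431, edgeR) for Sod1, the copper- and zinc-dependent superoxide dismutase, and 0.22 ± 0.11 (SE; adjusted p = 0.365, edgeR) for Cp, the copper-carrying ferroxidase ceruloplasmin. The copper chaperone Atox1 was at 0.24 ± 0.18, the copper transporter Slc31a2 at -0.28 ± 0.22, the ferritin light chain Ftl1 at 0.31 ± 0.17 and the iron importer Slc11a2 at -0.13 ± 0.09 on the log2 fold change scale (SE).

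Markers of cells that could carry metallothionein RNA were read beside these results. The 12 Müller glia markers, none of them at 0, summed to 4388 to 6100.2 CPM in the RbnullTET-MYCN libraries and 5547 to 7170.3 CPM in the Rbnull libraries, with 8 of 12 at a negative log2 fold change and 0 called by edgeR (5 at an unadjusted p under 0.05). DESeq2 called 4 of the 12, Glul, Kcnj10, Aqp4 and Abca8a, as lower, and limma-voom called 0. Kcnj10 and Aqp4 were also called lower by edgeR without RbnullTET-MYCN 2, and Glul, Kcnj10 and Aqp4 without RbnullTET-MYCN 3. Other edgeR fits called Kcnj10 as lower without a filter on low counts, and Glul and Kcnj10 without both Rbnull 1 and RbnullTET-MYCN 3. The median log2 fold change of the 12 was -0.28, with 4 positive. In the fits without RbnullTET-MYCN 2 or 3 edgeR called more of all genes too, up to 230. Glul, the glutamine synthetase of Müller glia, averaged 739 ± 225 CPM in the RbnullTET-MYCN libraries and 1770.2 ± 504 CPM in the Rbnull libraries (SD, n = 4 each). The 6 astrocyte markers summed to 239 to 393 CPM in the RbnullTET-MYCN libraries and 314 to 399 CPM in the Rbnull libraries. Of these 6, 5 had a negative log2 fold change (median -0.70), with 3 at an unadjusted p under 0.05. By edgeR, DESeq2 and limma-voom 0 were called, and without RbnullTET-MYCN 3 edgeR called S100b and Igf2 as lower. Gfap, the glial filament gene, was the 1 with a positive value, at 0.75 ± 0.38 (SE; adjusted p = 0.364, edgeR). It was at 38.7 to 161 CPM in the RbnullTET-MYCN libraries, lowest in library 2, and 45.4 to 90.0 CPM in the Rbnull libraries. The 12 ciliary and pigment epithelium markers, 1 of them at 0 in some library, summed to 31.3 to 159.8 CPM in the RbnullTET-MYCN libraries and 29.0 to 71.5 CPM in the Rbnull libraries. RbnullTET-MYCN 2, lowest of its group in Mt1 and Mt2, was also its lowest in this sum. Of the 9 of these markers tested, 7 had a positive log2 fold change (median 0.90), with 5 at an unadjusted p under 0.05. Of these 9, edgeR and limma-voom called 0 and DESeq2 called 3 as higher, Otx1, Bmp4 and Slc6a13, which edgeR also called without RbnullTET-MYCN 2 (without RbnullTET-MYCN 3 it called Bmp4 and Slc6a13). The 12 microglia and macrophage markers summed to 251 to 530.4 CPM in the RbnullTET-MYCN libraries and 219 to 509 CPM in the Rbnull libraries. Of these 12, 8 had a positive log2 fold change (median 0.074). One of them, Mmp12, the macrophage metalloelastase gene, was among the 9 genes that edgeR called, as higher (adjusted p = 0.0348), and DESeq2 called it as well. Mmp12 had 20.5, 1.73, 12.98 and 24.6 CPM in RbnullTET-MYCN libraries 1 to 4, against 0.153, 0.122, 0.197 and 0.135 CPM in the Rbnull libraries, where no library had more than 3 reads. RbnullTET-MYCN 2, lowest of its group in Mt1 and Mt2, was again the lowest. The Mmp12 call was lost with limma-voom, without a filter on low counts, without RbnullTET-MYCN 1 or 4 and without any 1 of the Rbnull libraries. The 10 endothelial and pericyte markers summed to 512 to 658 CPM in the RbnullTET-MYCN libraries and 598 to 684 CPM in the Rbnull libraries, and here RbnullTET-MYCN 2 was the highest of its group. Summed rod markers were 2864 to 6735 CPM in the RbnullTET-MYCN libraries and 4051 to 18394 CPM in the Rbnull libraries. The log2 fold change was negative for all 10 rod markers (median -1.24), with 7 at an unadjusted p under 0.05, and edgeR and limma-voom called 0, while DESeq2 called Pde6b, a rod phosphodiesterase subunit gene, as lower. Summed progenitor markers were 1337 to 1749.6 CPM in the RbnullTET-MYCN libraries and 1189.7 to 1895 CPM in the Rbnull libraries, and the log2 fold change was positive for 8 of 10 (median 0.52; edgeR and limma-voom called 0, DESeq2 called 3). Of the 12 lens markers 11 were tested, and 10 had a negative log2 fold change (median -3.24), with 9 at an unadjusted p under 0.05. For these lens markers edgeR and limma-voom called 0, and DESeq2 called 7 as lower. In bulk tissue more cells of a type and more RNA per cell cannot be told apart, and the part of cell makeup in the values of the 5 genes was not tested.

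After the group means were taken off, Mt1 and Mt2 varied together across the 8 libraries (Pearson r = 0.83 of the deviations in log2 CPM, a description over libraries that share depth and preparation). For the same deviations r was 0.65 between Mt3 and Slc30a1, 0.027 between Mt1 and Mt3 and -0.49 between Mt1 and Slc30a1. These pooled values hid differences between the groups. In the 4 Rbnull libraries r was 0.091 for Mt3 and Slc30a1, 0.95 for Mt1 and Mt3 and 0.27 for Mt1 and Slc30a1. In the 4 RbnullTET-MYCN libraries the same pairs had r of 0.70, -0.13 and -0.55. For Mt1 and Mt2 r was 0.65 in the Rbnull libraries and 0.88 in the RbnullTET-MYCN libraries. Among 12338 other genes with a mean of at least 5 CPM, the deviations most like those of Mt1 were of Ube2g2 (r = 0.98), Ramp2, Ccdc51, Rrp8 and Ctsl. Those most like Mt2 were of Clns1a (r = 0.98), S100a6, Akr1b10, Exosc1 and Mrpl17, and the lists shared no gene. The leading genes were Gm166 for Mt3 (r = 0.99), Stk38l for Mtf1 (r = 0.98) and Pls3 for Slc30a1 (r = 0.99). These are the highest of 12338 correlations over only 8 libraries, so selection alone can give such values. Nothing is read from the names or from the lists sharing no gene.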

How the data were processed

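The authors deposited unnormalized whole-number counts by gene symbol for 8 libraries. Per the submitters' processing notes, CASAVA 1.8.2, TopHat2 2.0.8b and HTSeq 0.5.4p3 were named with build mm9. Their options, the annotation and any use of strand were not stated in these sources. Per the labels' protocols, total RNA was taken with Trizol, and poly(A) RNA was made into libraries with a NEBNext Ultra kit. Reads outside single genes (28.3% to 31.7% per file) stayed out of library sizes and tests, and reads aligned to several places made up 9.05% to 12.8%.

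Counts were scaled by TMM, and filterByExpr kept 15106 of 23284 genes. Differences were tested by quasi-likelihood in edgeR 4.0.16 (R 4.3.3, robust = TRUE), with the group as the only term and Benjamini-Hochberg adjustment over all genes tested. SE is the absolute log2 fold change over the square root of F. CPM used TMM-scaled library sizes, and 3 counts were 0.130 to 0.202 CPM. Log2 CPM used a prior count of 2. DESeq2 1.42.0, limma-voom (limma 3.58.1), other scalings and filters, the replicate block and each library left out were alternatives. The procedure was tested on simulated counts. Libraries within each group all differed by more than sampling noise.

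Members and lists were chosen with earlier results of these data known. The naming rule took the 5 genes, then in each list those past the threshold or else the 3 with the smallest unadjusted p (4 in the zinc and MTF1 lists). Reference sequences were read with Python 3.11.15 and aligned with Biopython 1.88, and figures drawn with matplotlib 3.10.9. Their build, GRCm38, is not that of the files, so no coordinates of the counted genes are given.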

Additional observations from a re-analysis of the deposited data

Results flagged for a closer look

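In 68 groups of 4 libraries, covering the 5 genes and the zinc and MTF1 lists, 2 values stood far from the other 3 of their group by Dixon's criterion, which flags about 1 in 20 groups by chance. Slc30a2 was at 5.28 CPM in RbnullTET-MYCN 3, against 0.453 to 1.17 CPM in the other 3 RbnullTET-MYCN libraries. Slc39a7, a zinc importer of the endoplasmic reticulum, was at 118 CPM in Rbnull 3, against 125 to 126 CPM in the other 3 Rbnull libraries.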

How the results depend on the processing

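Under 18 alternatives, 3 of them chosen after seeing the data, the log2 fold change was 0.80 to 1.04 for Mt1, 1.08 to 1.38 for Mt2, -1.18 to -0.38 for Mt3, -0.36 to -0.27 for Mtf1 and -0.35 to -0.10 for Slc30a1. Mt3, Mtf1 and Slc30a1 passed the threshold under none of them, with adjusted p of 0.0988 to 0.810, 0.113 to 0.673 and 0.212 to 0.798. The number of genes called, 9, became 17 without a filter on low counts, 539 with DESeq2, 0 with limma-voom (2262 with an unadjusted p under 0.05), 3 with the replicate block and 0 to 230 with a library left out. It was 0 without any 1 of RbnullTET-MYCN 1 and 4 and Rbnull 2, 3 and 4, 1 without Rbnull 1, 132 without RbnullTET-MYCN 2 and 230 without RbnullTET-MYCN 3. In fits chosen after seeing the data it was 0 without the crystallin-rich Rbnull 2 and 3, and 41 without Rbnull 1 and RbnullTET-MYCN 3, those with most reads aligned to several places. Of 29 other zinc transporter and MTF1 target genes 0 were called, except 1 with DESeq2. Slc30a7 turned to -0.0017 without RbnullTET-MYCN 1 and was at -0.0017 to 0.18 over the fits that left out 1 library, and 534 of 557 values of the 31 named list genes kept their direction and side of the threshold. Of 198 values of the list medians, 7 moved by more than the spread between replicates (1 SD). They were those of the MTF1 target, heat shock and hypoxia lists named in the text and the glucocorticoid median at 0.092 without Rbnull 2. Also among them were the hypoxia median at 0.33 with a filter of 1 CPM in 4 libraries, and the median of all genes at -0.0092 without Rbnull 1 and RbnullTET-MYCN 3. The causes were not tested. Replicate numbers did not pair the samples: the correlation of same-numbered deviations was -0.040, -0.062, -0.12 and -0.29, and with the replicate block Mt3 was at -0.77. The depth limits statements on genes near 0.130 to 0.202 CPM, such as Mt4.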

Other observations

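Genes of the other known routes to metallothionein induction were read from the same edgeR fit, by counts and median log2 fold change beside 0.012 over all genes tested. Of 14 genes of the oxidative stress response 0 were called (3 at an unadjusted p under 0.05; DESeq2 called 2 and limma-voom 0), with a median of 0.12 and 10 positive. Slc7a11, the cystine importer that feeds glutathione synthesis, had 8.53, 8.87, 4.89 and 10.4 CPM in RbnullTET-MYCN libraries 1 to 4, against 1.73, 2.73, 2.75 and 2.69 CPM in the Rbnull libraries, without overlap. Its log2 fold change was 1.73 ± 0.26 (SE; adjusted p = 0.0632, edgeR), and those of the glutathione transferase Gstm1 and the thioredoxin reductase Txnrd1 were 0.50 ± 0.13 (SE; adjusted p = 0.164, edgeR) and 0.38 ± 0.14 (SE; adjusted p = 0.236, edgeR). The 2 calls of DESeq2 were Slc7a11 and Gstm1, as higher. Slc7a11 was also called by edgeR without a filter on low counts, without RbnullTET-MYCN 2, without RbnullTET-MYCN 3, and without both Rbnull 1 and RbnullTET-MYCN 3. It was not called under the other 13 alternatives. Hmox1, the haem oxygenase gene strongly induced by metals, was at 7.79 to 14.2 CPM in the RbnullTET-MYCN libraries and 8.15 to 11.1 CPM in the Rbnull libraries (0.39 ± 0.20 SE; adjusted p = 0.382, edgeR), and was named for that role after its values were seen.

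Of 11 glucocorticoid response genes 0 were called by edgeR (2 at an unadjusted p under 0.05; DESeq2 called 1 and limma-voom 0), with a median of -0.038 that was 0.092 without Rbnull 2 and -0.16 without Rbnull 3. Klf9 was at 87.6 to 108 CPM in the RbnullTET-MYCN libraries and 121 to 165 CPM in the Rbnull libraries (-0.51 ± 0.12 SE; adjusted p = 0.157, edgeR), and Nr3c1, the glucocorticoid receptor gene, had a log2 fold change of -0.44 ± 0.14 (SE; adjusted p = 0.202, edgeR). Tsc22d3 was at 0.15 ± 0.09 (SE; adjusted p = 0.457, edgeR). Of 11 STAT3 and acute-phase genes 0 were called by edgeR (3 at an unadjusted p under 0.05; DESeq2 called 1 and limma-voom 0), with a median of 0.42. In this list Lcn2, Timp1 and Bcl3 led, and RbnullTET-MYCN 2, the library lowest of its group in Mt1 and Mt2, was also its lowest for each of them, at 0.346, 1.77 and 0.779 CPM. The other 3 RbnullTET-MYCN libraries had 23.7 to 46.1 CPM of Lcn2, 3.15 to 3.82 CPM of Timp1 and 1.52 to 3.64 CPM of Bcl3, and the Rbnull libraries had 0.182 to 0.875 CPM of Lcn2, 1.32 to 1.95 CPM of Timp1 and 0.404 to 1.34 CPM of Bcl3. Of these 11 genes 8 had a positive log2 fold change, and all 8 were lowest of their group in RbnullTET-MYCN 2. The 3 with a negative value were not. In other lists, not every gene with a positive value was lowest in that library. RbnullTET-MYCN 3 was lowest of its group for Slc30a10 (78.3 CPM), Slc7a11 (4.89 CPM), Ndufa4l2 (51.8 CPM) and Pdk1 (29.7 CPM). RbnullTET-MYCN 4 was lowest for Bnip3 (81.8 CPM). Whether a shared lowest library bears on Mt1 and Mt2 was not tested.

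Of 10 hypoxia response genes 1 was called as higher by edgeR, the mitochondrial protein gene Ndufa4l2, with 4 at an unadjusted p under 0.05 and a median of 0.43, or 0.28 without RbnullTET-MYCN 2 (DESeq2 called 3 and limma-voom 0). Ndufa4l2 had 90.0, 76.9, 51.8 and 106 CPM in RbnullTET-MYCN libraries 1 to 4, against 21.4, 14.3, 14.0 and 11.9 CPM in the Rbnull libraries. Its log2 fold change was 2.39 ± 0.25 (SE; adjusted p = 0.0301, edgeR), a call lost with limma-voom, with the replicate block, without RbnullTET-MYCN 1 or 4, without Rbnull 2, 3 or 4, and without Rbnull 2 and 3 (adjusted p = 0.0563 to 0.484), and kept under the other 10 alternatives. Bnip3 and Pdk1, which act on mitochondria and pyruvate use and were named after their values were seen as the other calls of DESeq2, had log2 fold changes of 0.55 ± 0.15 (SE; adjusted p = 0.170, edgeR) and 0.67 ± 0.19 (SE; adjusted p = 0.184, edgeR). Of 10 heat shock genes edgeR, DESeq2 and limma-voom called 0 (2 at an unadjusted p under 0.05), with a median of 0.097 that was -0.066 without RbnullTET-MYCN 2. Hspe1, Bag3 and Hspb1 had log2 fold changes of 0.42 ± 0.14, 0.46 ± 0.18 and -0.44 ± 0.21 (SE; adjusted p = 0.217, 0.265 and 0.342, edgeR).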
